A study of Mus musculus with 7 samples.

Results

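Menin, the D cyclins, their kinase partners and the inhibitors of those kinases were read in pancreatic islets of pregnant mice. The members were 10 gene symbols chosen by name: Men1, Ccnd1, Ccnd2, Ccnd3, Cdk4, Cdk6, Cdkn1a, Cdkn1b, Cdkn2a and Cdkn2c. Each was read from the probe set annotated to that symbol alone, taking the one with the highest mean where there were several. This gave values for 9 of the 10, out of 19938 genes measured in the series. The probe set that lists Cdkn1a, which encodes p21, also lists another symbol, so Cdkn1a is not analysed here.

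The islets came from 3 PrlR+/+ mice, with both alleles of the prolactin receptor gene intact, and 4 PrlR+/- mice, in which 1 of the 2 alleles was a null allele. All were C57BL/6 females mated at 12 to 16 weeks of age and sampled on day 15 of pregnancy, and no other treatment or allele is named. The labels name no tissue-specific promoter or Cre for the null allele and do not say whether the mice were littermates. Islets of each mouse were hybridised to 1 Affymetrix array, so a replicate is a mouse. Values are log2 expression levels as the authors deposited them, and a difference is PrlR+/- minus PrlR+/+.

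D cyclins bind Cdk4 or Cdk6, and the paired kinase phosphorylates the retinoblastoma protein, which releases E2F factors and lets a cell leave G1 for S phase. Inhibitors of the INK4 type, p16 (Cdkn2a) and p18 (Cdkn2c), bind Cdk4 and Cdk6 directly, while p27 (Cdkn1b) and p21 act mainly on cyclin-bound kinases. Menin, encoded by Men1, works with MLL histone methyltransferases to keep Cdkn1b and Cdkn2c transcribed in endocrine cells, and its level is known to fall in mouse islets in pregnancy, when beta cells divide under prolactin and placental lactogen. Ccnd2 and Cdk4 are the pair on which postnatal beta cell growth depends most in mice.

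Promoter windows are shown for the gene at the head of this chain, for the kinase of the main beta cell pair, and for Cdkn2a, whose 2 start sites make different proteins that 1 probe set reads together. Each window holds the 250 bases before a RefSeq start site (build GRCm38.p6), 5′ to 3′ on the strand of the gene. Capitals mark matches on either strand to TTCNNNGAA (the STAT5 site), TTTGGCGC or TTTCCCGC (E2F), TGACGTCA (CRE), GGGCGG (Sp1) or CACGTG (the E-box), and none of the matches shown overlaps another.
Men1, chr19:6334729-6334978, plus strand: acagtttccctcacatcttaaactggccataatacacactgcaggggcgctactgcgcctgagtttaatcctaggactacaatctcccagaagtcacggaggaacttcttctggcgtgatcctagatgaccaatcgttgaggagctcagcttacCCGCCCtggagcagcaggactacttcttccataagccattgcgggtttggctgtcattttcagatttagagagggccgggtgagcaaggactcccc
Cdk4, chr10:127063285-127063534, plus strand: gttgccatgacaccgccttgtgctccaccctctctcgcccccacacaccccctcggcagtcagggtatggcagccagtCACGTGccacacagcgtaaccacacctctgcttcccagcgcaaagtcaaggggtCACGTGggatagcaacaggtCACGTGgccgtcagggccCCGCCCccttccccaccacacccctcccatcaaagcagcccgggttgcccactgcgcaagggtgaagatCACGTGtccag
Cdkn2a, distal start, chr4:89294620-89294869, minus strand: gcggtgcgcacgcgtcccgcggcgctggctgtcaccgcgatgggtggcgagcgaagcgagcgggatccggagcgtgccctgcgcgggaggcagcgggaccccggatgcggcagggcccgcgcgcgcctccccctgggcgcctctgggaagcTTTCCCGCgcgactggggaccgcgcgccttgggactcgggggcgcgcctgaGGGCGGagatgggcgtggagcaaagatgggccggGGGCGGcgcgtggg
Cdkn2a, proximal start, chr4:89282193-89282442, minus strand: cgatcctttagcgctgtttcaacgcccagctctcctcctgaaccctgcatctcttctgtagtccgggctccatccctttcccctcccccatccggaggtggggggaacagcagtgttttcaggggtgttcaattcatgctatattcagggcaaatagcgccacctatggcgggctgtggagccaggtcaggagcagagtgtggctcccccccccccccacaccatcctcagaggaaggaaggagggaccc

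RefSeq windows were found for 8 of the 10 symbols, 14 windows in all; Ccnd1 and Ccnd2 had none in the table. The STAT5 letters matched in 0 of these 8 genes, against 8.13% of all 27025 genes with a window (7.02% of 32851 windows), which says only that these letters are not in these windows. RefSeq gives 3 Men1 starts close together, and the window of the most upstream is shown. It holds 1 Sp1 match, from -96 to -91 relative to that start, on the minus strand, which lies at -130 and -156 (first base) from the other starts. The Cdk4 window holds 4 E-boxes, the sites bound by Myc and related factors, at -172, -118, -98 and -11 (first base), and 7 windows, or 0.0213% of all, hold at least 4. One E-box also lies in the window of Cdk6, at -220, and 6.02% of all windows hold 1 or more. The distal Cdkn2a window, before the start of the p19 transcript, holds the E2F letters TTTCCCGC at -99, which 0.895% of windows hold. The proximal window, before the p16 start and 12427 bases away, holds none of the motifs. The Sp1 letters matched in 7 of the 8 genes and in 35.4% of all genes (32.7% of windows), TTTGGCGC in 0 of the 8 and 0.485% (0.417%), and TGACGTCA in 0 of the 8 and 1.77% (1.55%). The array values do not bear on binding at these sites.

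Setting PrlR+/- beside PrlR+/+ islets addressed whether genes of cell cycle entry depend on the full dose of the prolactin receptor in pregnancy. None of the 9 measured members passed the test across all genes, and for every member the 2 genotypes overlapped or shared a value. The means of 6 members were lower and those of 3 higher in PrlR+/- islets, and the differences lay between -0.22 for Ccnd3 and 0.18 for Men1. The signs of Ccnd1, Cdk6, Cdkn1b, Cdkn2a and Cdkn2c turned in other processing or with a mouse left out. Cdkn1b, for example, was at 0.0024 after quantile normalization. The median difference of the members was -0.025, where the median of all genes was 0.0142. Of all 19938 genes, 11115 had higher and 8708 lower means.

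The test was limma's moderated test over all 19938 genes, and a gene was called at a Benjamini-Hochberg adjusted p under 0.05. It called 0% of all genes, with a smallest adjusted p of 0.99. At an unadjusted p under 0.05 it held 438 genes, or 2.2%, and 0 of the 9 members. Groups without overlap were found for 446 genes, or 2.24%, and for 0 of the members. The 95% interval of the difference lay within 1.5-fold in both directions for all 9, as it did for 89.9% of all genes, and within 1.25-fold for 6, as for 53.4% of all genes. The 3 members with wider intervals were Men1, Ccnd3 and Cdkn2c. With 3 against 4 arrays, differences inside these intervals remain possible. The intervals are not a limit beyond which the test would have called a gene.

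**Figure D1:**
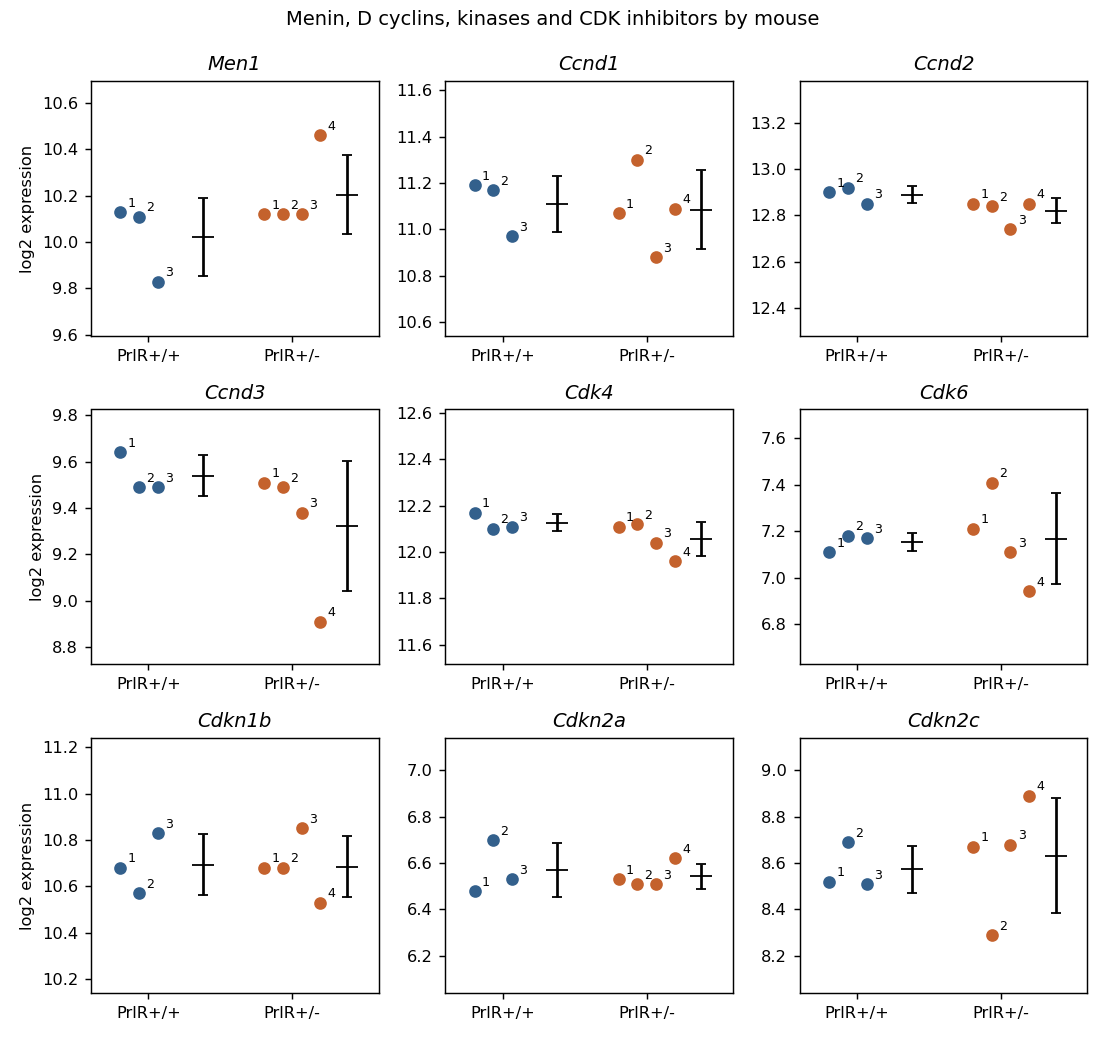
Log2 expression of the 9 measured genes in each mouse; numbers give the mouse within its genotype, the bar beside each group is the mean and its SD, and every panel has the same span. The genotypes overlap or touch in all 9 panels, and mouse PrlR+/- 4 lies apart for Men1 (10.46) and Ccnd3 (8.91).

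Menin, a restraint on beta cell growth, was measured by probe set 10460879 (Men1, chromosome 19, 6334979 to 6340894, GRCm38.p6). The PrlR+/+ mice 1 to 3 had Men1 values of 10.13, 10.11 and 9.83, and the PrlR+/- mice 1 to 4 had values of 10.12, 10.12, 10.12 and 10.46; other genes are given in the same order. The first 3 PrlR+/- mice therefore lay between the values of PrlR+/+ 2 and PrlR+/+ 1, while the fourth was the highest of all and PrlR+/+ 3 the lowest. The means were 10.21 ± 0.17 (SD, n = 4) and 10.02 ± 0.17 (SD, n = 3), a difference of 0.18 ± 0.12 (SE; limma, unadjusted p = 0.162, adjusted p = 0.99). Its 95% interval ran from 0.938-fold to 1.37-fold. Without PrlR+/- 4 the difference was 0.0967, and without PrlR+/+ 3 it was 0.085.

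The 3 D cyclins had lower means in PrlR+/- islets, none past the test, and that of Ccnd1 turned with single mice left out. Ccnd2, the D cyclin most needed for beta cell growth (probe set 10548105), was at 12.90, 12.92 and 12.85 in PrlR+/+ mice and at 12.85, 12.84, 12.74 and 12.85 in PrlR+/- mice. The lowest PrlR+/+ value equalled the highest PrlR+/- value, so the groups touched without crossing. The difference was -0.07 ± 0.06 (SE; limma, adjusted p = 0.99), with a 95% interval from 0.869-fold to 1.04-fold. Ccnd2 varied little from mouse to mouse: only 6.42% of genes had a smaller spread within genotypes. Its level lies in the upper part of the measured range, which ended at 13.97, where an array can compress differences.

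Ccnd3, the D cyclin with the largest difference here (probe set 10445688), was at 9.64, 9.49 and 9.49 in PrlR+/+ mice and at 9.51, 9.49, 9.38 and 8.91 in PrlR+/- mice. The first 2 PrlR+/- mice fell among the PrlR+/+ values, and the low mean came mostly from PrlR+/- 4. The means were 9.32 ± 0.28 (SD, n = 4) and 9.54 ± 0.09 (SD, n = 3), a difference of -0.22 ± 0.15 (SE; limma, unadjusted p = 0.187, adjusted p = 0.99). Without PrlR+/- 4 it was -0.08, and with array weights, which give deviating arrays less influence, it was -0.10.

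Ccnd1, a D cyclin that also serves ductal, stromal and endothelial cells (probe set 10569646), was at 11.19, 11.17 and 10.97 in PrlR+/+ mice and at 11.07, 11.30, 10.88 and 11.09 in PrlR+/- mice. Both the highest and the lowest value belonged to PrlR+/- mice. The difference was -0.025 ± 0.11 (SE), and its sign turned when any of 3 mice was left out (0.015 without PrlR+/+ 1, 0.005 without PrlR+/+ 2 and 0.0433 without PrlR+/- 3) or with array weights (0.0146), while it was -0.156 with the stellate marker mean as a covariate.

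Of the kinases, Cdk4 (probe set 10366814) was at 12.17, 12.10 and 12.11 in PrlR+/+ mice and at 12.11, 12.12, 12.04 and 11.96 in PrlR+/- mice. Only PrlR+/- 3 and PrlR+/- 4 lay below the PrlR+/+ values. The difference was -0.07 ± 0.06 (SE; limma, adjusted p = 0.99) with a 95% interval from 0.862-fold to 1.05-fold, and -0.0367 without PrlR+/- 4. Cdk4 was, like Ccnd2, one of the steadier transcripts: 11.6% of genes had a smaller spread within genotypes. Its level also lies in the upper part of the measured range, where an array can compress differences. Cdk6, the second kinase that D cyclins can use (probe set 10519324), was at 7.11, 7.18 and 7.17 in PrlR+/+ mice and at 7.21, 7.41, 7.11 and 6.94 in PrlR+/- mice. The PrlR+/- mice spread on both sides of the PrlR+/+ mice, with an SD of 0.20 (n = 4) against 0.04 (n = 3), and the means differed by 0.0142 ± 0.11 (SE).

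**Figure D2:**
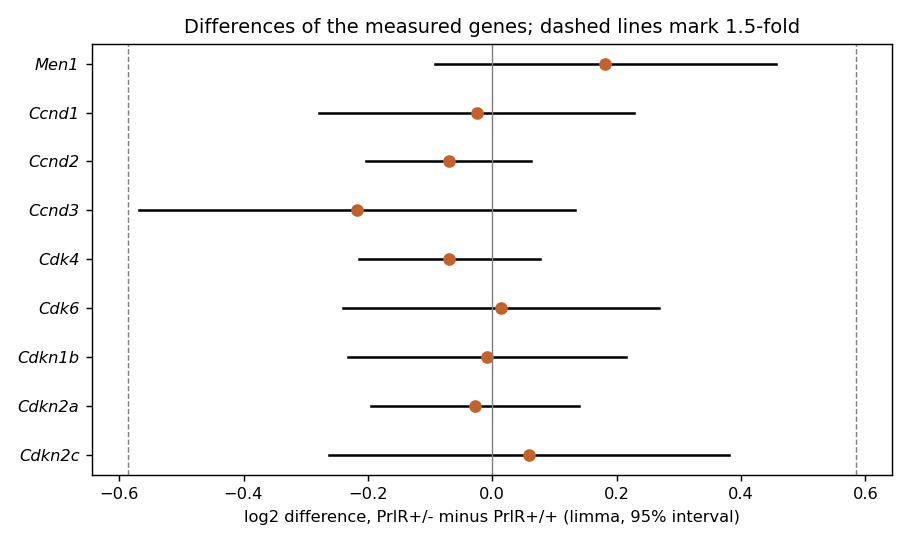
Log2 difference of each measured gene (point) with its 95% interval from limma (line), PrlR+/- minus PrlR+/+, n = 4 and 3 mice. All 9 intervals hold 0 and end inside the dashed 1.5-fold lines; the widest is that of Ccnd3.

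The inhibitors showed no common direction. Cdkn1b, encoding p27, was at 10.68, 10.57 and 10.83 in PrlR+/+ mice and at 10.68, 10.68, 10.85 and 10.53 in PrlR+/- mice (probe set 10542310). The means, 10.69 in both genotypes when rounded, differed by -0.0083 ± 0.10 (SE), and the 95% interval ran from 0.852-fold to 1.16-fold. A second Cdkn1b probe set (10542317), with lower values, averaged 7.61 in both genotypes.

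Cdkn2c, encoding p18 (probe set 10515090), was at 8.52, 8.69 and 8.51 in PrlR+/+ mice and at 8.67, 8.29, 8.68 and 8.89 in PrlR+/- mice. The lowest and the highest value both came from PrlR+/- mice, numbers 2 and 4. The difference was 0.06 ± 0.14 (SE; limma, adjusted p = 0.99). It was -0.0267 without PrlR+/- 4 and 0.17 without PrlR+/- 2.

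Cdkn2a, whose probe set (10514340) is annotated to both the p16 and the p19 transcripts, was at 6.48, 6.70 and 6.53 in PrlR+/+ mice and at 6.53, 6.51, 6.51 and 6.62 in PrlR+/- mice. All PrlR+/- values lay inside the PrlR+/+ range. The difference was -0.0275 ± 0.07 (SE) and turned to 0.0375 without PrlR+/+ 2. The gene was dim: its values fell under the filters on dim genes, and the products of its 2 starts cannot be told apart.

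For each of the 9 members the range among PrlR+/- mice was wider than the difference between the genotype means. PrlR+/- 4 alone held the highest or the lowest value of the 7 mice for 6 of the 9 members, highest for Men1 and Cdkn2c and lowest for Ccnd3, Cdk4, Cdk6 and Cdkn1b. The same mouse was the single extreme for 47.1% of all genes, more than any other, where the other mice ranged from 16.7% to 34.5%. PrlR+/- 1 was the extreme for 0 members. PrlR+/- 2 had the highest Ccnd1 and Cdk6 and the lowest Cdkn2c.

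**Figure D3:**
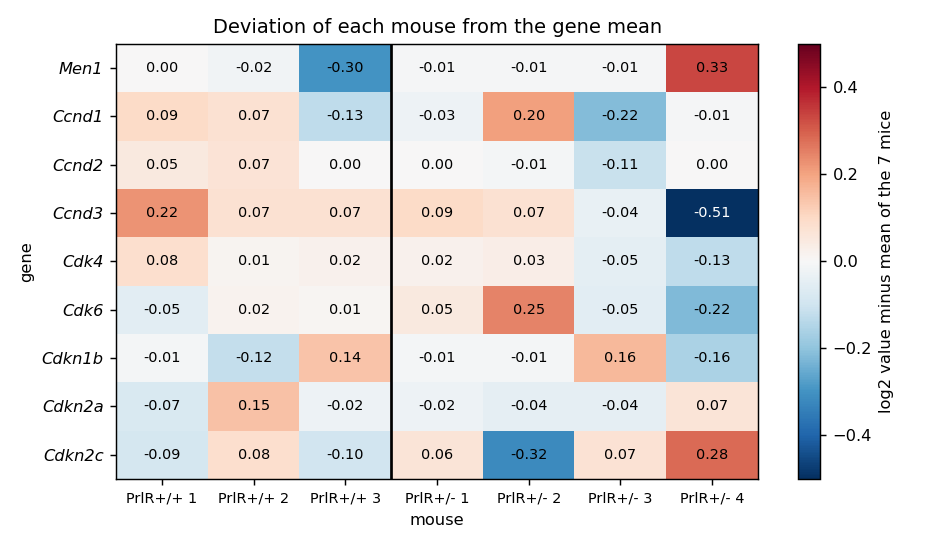
Log2 value of each gene (row) in each mouse (column) minus the mean of that gene over the 7 mice; the vertical line parts the genotypes. The 2 strongest colours stand in the column of PrlR+/- 4, for Ccnd3 (8.91) and Men1 (10.46); next come Cdkn2c in PrlR+/- 2 (8.29) and Men1 in PrlR+/+ 3 (9.83).

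Transcripts of cycling cells were set beside the members, mouse by mouse. The mean of 25 S-phase and mitosis genes came to 7.608, 7.135 and 7.384 in the PrlR+/+ mice, and the PrlR+/- mice had 7.609, 7.476, 7.298 and 7.135. The lowest level was thus shared by 1 mouse of each genotype, and so, nearly, was the highest. Mki67, which marks cells outside G0, ranged from 7.41 to 8.40 among PrlR+/+ mice, and among PrlR+/- mice from 7.38 to 8.36.

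Across the 7 mice, 9 correlations with this mean were computed, and 0 passed after Benjamini-Hochberg adjustment. Cdkn2a had a Pearson r of -0.805 (2-sided exact permutation p = 0.0246, adjusted 0.148) and a Spearman rho of -0.636 (exact permutation p = 0.135, adjusted 0.312). Without the 2 mice farthest from the median, PrlR+/+ 2 and PrlR+/- 4, r was -0.278. Leaving them out also narrows the range of the mean, so this r does not show what the relation rested on. Cdk4 had r = 0.727 (exact permutation p = 0.0492, adjusted 0.148) and rho = 0.739 (exact permutation p = 0.0667, adjusted 0.311), and r = 0.80 without the 2 mice. Ccnd3 had r = 0.667 (exact permutation p = 0.0429, adjusted 0.148) and rho = 0.741 (exact permutation p = 0.069, adjusted 0.311), and r = 0.828 without them. For Men1 r was -0.363 (exact permutation p = 0.439, adjusted 0.565), with rho = 0.148 (exact permutation p = 0.771, adjusted 0.783) and r = 0.387 without them. Leaving out the same 2 mice took r from 0.033 to 0.812 for Ccnd2 and from 0.353 to -0.907 for Cdkn1b, so r over the remaining 5 mice was unstable. The other 5 members had adjusted p of 0.363 to 0.962 for r and of 0.312 to 0.783 for rho, all from exact permutation.

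**Figure D4:**
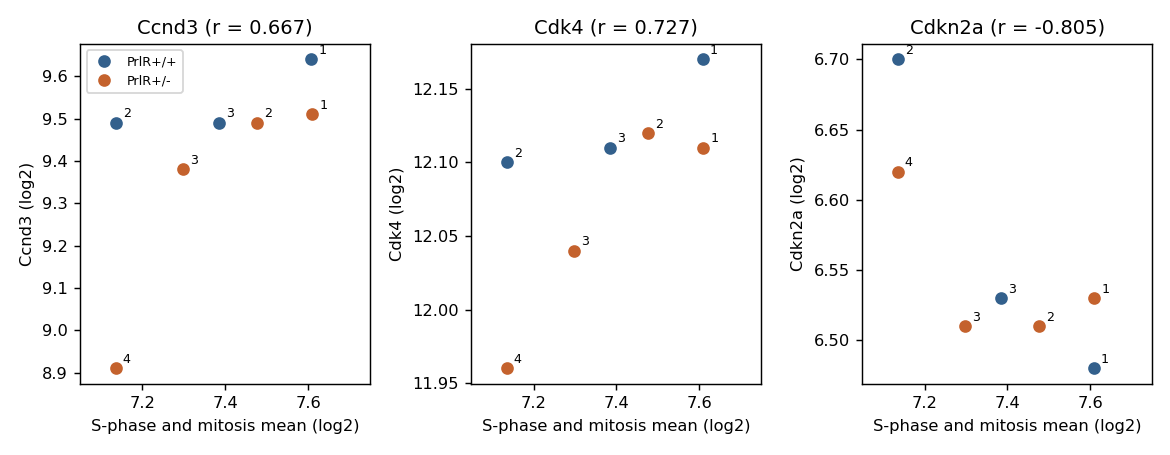
Log2 level of Ccnd3, Cdk4 and Cdkn2a against the mean log2 level of 25 S-phase and mitosis genes, 1 point per mouse, numbered within its genotype. Cdk4 and Ccnd3 lie higher and Cdkn2a lower where the mean is high (r = 0.727, 0.667 and -0.805), and none of the 3 passed after adjustment.

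Genes around the members in the same pathway were read from lists chosen by role, and 0 of 77 passed the test. Over all 19938 genes, 11115 had higher and 8708 lower means, with a median of 0.0142. Of 12 menin partners and Polycomb genes, 7 had higher and 5 lower means, with a median of 0.022. Wdr5, a shared subunit of MLL complexes, was at -0.10 ± 0.09 (SE), and Hcfc1, Kmt2b and Dpy30, also of these complexes, at 0.11 ± 0.12, 0.095 ± 0.12 and 0.18 ± 0.24. Dpy30 varied widely between PrlR+/- mice, from 9.36 to 10.32.

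Of 30 other genes of G1 and S-phase entry, 19 had higher and 11 lower means, with a median of 0.0296. Cks1b, which helps the Skp2 ligase mark p27 for breakdown, was the 1 gene of the 77 with an unadjusted p under 0.05. Of all genes, 2.2% had such a p. Cks1b was at 9.51, 9.26 and 9.01 in PrlR+/+ mice and at 9.44, 9.74, 9.60 and 9.56 in PrlR+/- mice. PrlR+/- 1 lay below PrlR+/+ 1, and the other 3 PrlR+/- mice lay above all PrlR+/+ mice. The difference was 0.325 ± 0.13 (SE; limma, unadjusted p = 0.0352, adjusted p = 0.99). E2f4, a mostly repressive E2F, was at 0.29 ± 0.19, E2f2, an activating one, at 0.155 ± 0.10, and Rb1, the retinoblastoma gene, at -0.14 ± 0.10 (SE).

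Upstream of the D cyclins, 5 of 10 genes had higher and 5 lower means, with a median of -0.0142. The receptor's kinase gene Jak2 was at -0.19 ± 0.10, Pim1, a kinase gene induced by STAT5, at -0.15 ± 0.08, Stat5b at 0.09 ± 0.07, and Foxo1, a repressor of growth genes, at 0.07 ± 0.07 (SE). Of the 25 S-phase and mitosis genes, 14 had higher and 11 lower means, with a median of 0.0067. Among them Cdk1, the mitotic kinase, was at 0.20 ± 0.17, the replication clamp Pcna at 0.18 ± 0.11, and the kinesins Kif20a and Cenpe at 0.115 ± 0.09 and -0.15 ± 0.10 (SE).

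**Figure D5:**
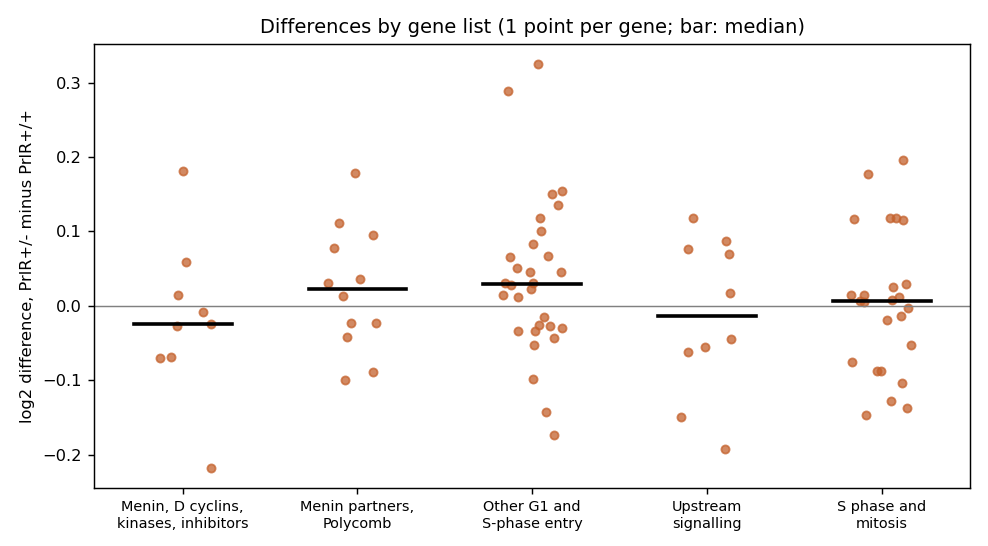
Log2 difference, PrlR+/- minus PrlR+/+, of each measured gene (point) of the 9 members and of 4 lists of related genes, with the median as a bar. Points lie on both sides of 0 in every list; the highest is Cks1b at 0.325 and the lowest Ccnd3 at -0.22.

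For 3 members, the genes whose values followed theirs most closely over the 7 mice were sought among 12928 genes (12929 for Ccnd2) with an SD of at least 0.1. For Men1 these were Misp3 (Pearson r = 0.997), Mir205 (0.997) and Bank1 (0.993). These coefficients rested mostly on PrlR+/+ 3 and PrlR+/- 4, since Men1 lay between 10.11 and 10.13 in the other mice. For Ccnd1 they were Clptm1l (0.975), Olfr630 (0.969) and Cad (0.953), the enzyme that starts pyrimidine synthesis. For Ccnd2 they were Cyp2j12 (0.992), Etfdh (0.985), of mitochondrial electron transfer, and Mrm1 (0.983). Each is the highest of that many coefficients over 7 mice and carries no test. Mir205 (4.17 to 4.87), Bank1 (4.34 to 4.95), Olfr630 (3.90 to 4.23) and Cyp2j12 (4.12 to 4.45) were dim. They lay under the array medians of 7.34 to 7.37, and the other genes named here lay above them.

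The labelled tissue was checked against markers. Ins2 lay between 13.23 and 13.36, Gcg between 13.47 and 13.63 and Sst between 13.36 and 13.70, near the top of the measured range, and so did the acinar gene Cpa1, between 13.62 and 13.77. Since these are whole islets, fewer cells of a type and less RNA per cell cannot be told apart, and each member is expressed in more than 1 cell type. PrlR+/- 2 had the highest mean of the 8 acinar markers (12.292, against 11.624 to 11.961 in the PrlR+/+ mice), of the 8 endothelial markers (9.648, against 9.32 to 9.419) and of the 9 stellate cell and fibroblast markers (7.72, against 7.229 to 7.461). The same mouse had the highest Ccnd1 and Cdk6, and without it the Cdk6 difference was -0.0667 and the Ccnd1 difference -0.0967. Each of the covariates below was highest in this mouse, so their fits cannot tell these marker means apart from this mouse alone. With the acinar, stellate or endothelial mean as a covariate the Cdk6 difference turned to -0.0489, -0.0566 and -0.0387 and the Ccnd1 difference of -0.025 moved to -0.0736, -0.156 and -0.0633, with 0 genes called in each fit (Ccnd1 with the stellate mean: SE 0.07, limma, unadjusted p = 0.0572, adjusted p = 0.958). The mean of 3 alpha cell markers was 11.983 to 11.99 in PrlR+/- and 11.897 to 11.933 in PrlR+/+ mice, with 3 of 3 higher; its part in the members' values was not tested. The mean of 8 beta cell markers was lowest in PrlR+/- 4, at 11.894 against 12.029 to 12.204 in the PrlR+/+ mice and 12.105 to 12.149 in the other PrlR+/- mice, and its part in the low Ccnd3 and high Men1 of that mouse was not tested. Markers of duct, myeloid and lymphoid cells, such as Krt19 (6.21 to 6.60), Cd68 (7.17 to 8.03) and Cd3d (4.74 to 5.13), were dimmer. Means were higher in PrlR+/- islets for 8 of 9 stellate, 7 of 8 acinar, 5 of 5 lymphocyte, 3 of 3 delta, 5 of 8 endothelial, 5 of 7 myeloid and 3 of 6 duct cell markers. They were higher for 3 and lower for 5 of 8 beta cell markers. Higher means were also found for 2 of 2 PP cell markers, 3 of 4 Schwann cell and neuron markers, and 11115 of all 19938 genes. The remaining Schwann cell and neuron marker differed by -0.4733 (limma, unadjusted p under 0.05), with groups that overlapped. Of 63 markers measured, 5 had groups that did not overlap, all higher in PrlR+/- (2.24% of all genes in either direction), and none passed the test. They were Cd3d (0.18 ± 0.07, SE), Lyz2 of macrophages (0.64 ± 0.10), Thy1 (0.34 ± 0.09), the endothelial gene Emcn (0.26 ± 0.09) and the duct factor Sox9 (0.21 ± 0.12), the last 4 named after their values were seen. Thy1 and Emcn entered the covariate fits only as part of the stellate and endothelial means. No fit held the lymphocyte, myeloid or duct markers, so the part of Cd3d, Lyz2 and Sox9 in the members' values was not tested.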

How the data were processed

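The values are log2 expression, as the authors deposited them, with 2 decimals and a span from 1.73 to 13.97; that they are log2 was inferred from this span. Affymetrix Expression Console 1.2.0.20 made them, per the submitters' processing notes. How it corrected, scaled and summarized the probes is not given in the sources used, and neither are scan dates or batches. Per the labels' protocols, 250 ng of RNA with an integrity number above 8.5 was labelled per mouse.

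Names come from the platform annotation. Of 35556 probe sets, 21789 had 1 symbol, 1621 several and 12146 were unlisted. Only the first kind was used. The probe set of highest mean stood for each gene. Median values of the 19938 genes lay between 7.34 and 7.37 on every array, and pairs of arrays correlated at 0.9883 to 0.9974 across genes. Arrays have no read depth; their number limits the precision. The genotypes were not checked against the targeted gene, which was not analysed here. Nor were 12 genes of the pathway and marker lists.

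Differences come from limma 3.58.1 (lmFit, eBayes; R 4.3.3), 2-sided, with the genotype alone in the design; the adjusted p is Benjamini-Hochberg's. Only the limma step was tested on simulated data, with values drawn independently for each gene and mouse. The simulation therefore does not cover a mouse that deviates in many genes. Correlations used exact permutation over the 7 mice. Named genes are the members, the 4 of smallest unadjusted p of each pathway list, Mki67, defining markers of the cell types, and the 3 genes most like Men1, Ccnd1 and Ccnd2. The members and lists were chosen with earlier results of these data known. The labels do not say that the same numbers in both genotypes pair the mice, so the main fit used no block. Alternatives were other variance models, array weights, scalings, filters, probe set means, marker covariates, the block, another threshold and leaving out each mouse.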

Additional observations from a re-analysis of the deposited data

Results flagged for a closer look

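Of 9 members tested for a mouse standing apart among the 4 PrlR+/- mice, 2 did. The Men1 value of PrlR+/- 4, 10.46, stood apart from the other 3, which were all at 10.12. The Ccnd2 value of PrlR+/- 3, 12.74, stood apart from 12.84 to 12.85 in the other 3, although the distance was small. In each case the gap to the nearest mouse took up more than 0.829 of the range of the group (all of it for Men1 and 0.909 for Ccnd2). Chance flags about 1 in 20 groups for values without ties, and here 15.0% of all genes were flagged in the same mice.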

How the results depend on the processing

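The choice of processing changed no call: with each of 19 alternatives and at an adjusted p under 0.1, 0 genes, 0 members and 0 of the 77 pathway genes were called by limma, and the unadjusted count over all genes ranged from 247 (without PrlR+/+ 3) to 1132 (array weights), against 438; the 1132 were still 0 after adjustment (smallest adjusted p 0.534). The lowest adjusted p of a member in any alternative was 0.818. The median difference of the members ranged from -0.0667 to 0.005 with 1 mouse left out. Men1 stayed higher (0.085 to 0.235 with 1 mouse left out) and Ccnd2 (-0.09 to -0.0433), Ccnd3 (-0.28 to -0.08) and Cdk4 (-0.09 to -0.0367) lower in all 19 alternatives. Of 169 member values, 18 turned in sign or reached 0, all of the 5 members nearest 0, and the cause was not tested. Both counts include settings that could not turn a sign. Other variance models and filters leave a difference as it is, as do probe set means for a gene with a single probe set. For Men1, Ccnd2, Ccnd3 and Cdk4 the replicate block gave the same difference as leaving out PrlR+/- 4. Ccnd1 was at 0.0146 with array weights, at -0.156 with the stellate covariate (unadjusted p = 0.0572 by limma, the lowest of a member in any alternative) and between -0.0967 and 0.0433 with 1 mouse left out (0.015 without PrlR+/+ 1, 0.005 without PrlR+/+ 2, 0.0433 without PrlR+/- 3). Cdk6 was at -0.0489, -0.0566 and -0.0387 with the acinar, stellate and endothelial covariates and between -0.0667 and 0.09 with 1 mouse left out (-0.0075 without PrlR+/+ 1, 0 without PrlR+/- 1, -0.0667 without PrlR+/- 2). Cdkn1b was at 0.0024 after quantile normalization, 0.0718 with the stellate covariate and between -0.07 and 0.06 with 1 mouse left out (0.06 without PrlR+/+ 3, 0.0433 without PrlR+/- 4). Cdkn2a was between -0.0725 and 0.0375 (0.0375 without PrlR+/+ 2) and Cdkn2c between -0.0267 and 0.17 (-0.0267 without PrlR+/- 4). Cdkn2a has no value under either filter on dim genes.

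With the number in the sample titles as a replicate block, 0 genes were called, 341 had an unadjusted p under 0.05, Cdkn1b was at 0.0433 and Cdkn2c at -0.0267. PrlR+/- 4 has no partner under this block and drops out of the difference. The deviations of same-numbered mice from their group means correlated at 0.09, -0.386 and -0.029 across genes. No mouse correlated best with its own number alone, and PrlR+/- 1 was at 0.09 with both PrlR+/+ 1 and PrlR+/+ 3. Deviations from means of so few mice depend on each other, so these values cannot decide whether the numbers pair the mice.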

Other observations

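Equal values recur in the deposited table. Men1 had the same value to 2 decimals in 3 of the 4 PrlR+/- mice, as did 7.11% of all genes, and Cd68 had the same value, 7.70, in all 4. Of the 3 genes that followed Men1 most closely, Mir205 had this form as well: it was at 4.52 in both PrlR+/+ 1 and PrlR+/+ 2 and in PrlR+/- 1 to 3, with 4.17 in PrlR+/+ 3 and 4.87 in PrlR+/- 4. Cyp2j12, which followed Ccnd2, was at 4.32 in PrlR+/+ 3 and in 3 of the PrlR+/- mice. How the summarization gave equal values was not tested.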
